A study of Homo sapiens with 6 samples.

Results

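The genes described here are 10 of the YAP/TEAD arm of the Hippo pathway: the coactivators YAP1 and WWTR1, the DNA-binding factors TEAD1 and TEAD4, the kinases LATS1 and LATS2, the YAP-binding scaffold AMOTL2, and the target genes CCN1, CCN2 and ANKRD1. They were chosen by name, and the annotation of the array gives them 30 of its 49395 probe sets, counting only probe sets with a single gene symbol. Each gene is represented by its brightest probe set over all arrays, as are the 18132 genes of the whole array, and its other probe sets serve as a check. Transcript levels come from Affymetrix arrays of TE-1, a cell line from a human squamous cell carcinoma of the oesophagus. A TE-1 clone with a stable knockdown of EIF3C, a subunit of the translation initiation factor eIF3, was compared with its parental cells, with 3 samples each that the labels call biological replicates. All cells were grown in the same medium with foetal bovine serum. The knockdown arrays share 1 clone, and the labels describe neither a further clone nor parental cells with a control construct, so the knockdown and the picking of a clone cannot be told apart. No label says whether replicates came from separate cultures. A p-value therefore sets the difference between groups only against the scatter of these samples, and that scatter may be technical.

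The Hippo pathway is a kinase cascade that restrains the transcriptional coactivators YAP (gene YAP1) and TAZ (gene WWTR1). When it is active, MST kinases switch on the LATS kinases, which phosphorylate YAP and TAZ so that they are held in the cytoplasm or degraded. When it is inactive, YAP and TAZ enter the nucleus, bind TEAD factors and raise transcription of genes such as CCN1 and CCN2. AMOTL2 and LATS2 restrain YAP and are also transcribed under its control, so they form a feedback loop, and much of the regulation of YAP is by phosphorylation, which an array of transcripts does not measure.

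The arrays were alike in scale, with median log2 signals between 6.09 and 6.11, and correlated more closely within groups (0.9977 to 0.9985 over probe sets) than between them (0.9824 to 0.9846). EIF3C was lower in the knockdown on all of its 5 probe sets, each of which is shared with the near-identical gene EIF3CL. On the brightest, 22.1% of the control level was left. Of 85 non-human control probe sets the largest fall was 0.22 and the largest rise 0.20 on the log2 scale. This range holds the changes of YAP1, WWTR1, LATS1 and AMOTL2 on their brightest probe sets. It also holds those on the other probe sets of LATS1 and AMOTL2, but not on all others of YAP1 and WWTR1. Of 10 listed markers of squamous epithelium 8 were found by a single gene symbol, and TP63 and KRT6A were not. Of these 8, 5 fell, among them TRIM29 by 0.99 and KRT15 by 0.92, and none rose. KRT5 and KRT14, defining basal keratins, were dim in both groups (control means 5.91 and 5.85), while KRT8 and KRT18, keratins of simple epithelium, were bright at 13.03 and 13.52. Of 5 tested simple epithelium genes 3 rose and 1, KRT19, fell. Beside these counts, 32.4% of all genes tested rose and 34.1% fell. For each list the signals were summed on the linear scale, so that the brightest genes weigh most, and the log2 of the sum was taken. For simple epithelium this was 14.70 to 14.74 in control and 14.74 to 14.76 in knockdown. The squamous list gave 12.05 to 12.09 and 11.77 to 11.81. Of the other lists of markers, leukocyte genes gave 6.28 to 6.52 in control and 6.24 to 6.44 in knockdown. Endothelial genes gave 8.08 to 8.20 and 8.17 to 8.22, smooth muscle genes 7.62 to 7.73 and 7.45 to 7.58, and fibroblast genes 9.14 to 9.21 and 7.73 to 7.88. In the fibroblast list COL1A2 fell by 2.52 and COL1A1 by 0.21, while the defining fibroblast genes DCN and LUM were dim in both groups (control means 3.60 and 2.60). The part of these marker changes in the results below was not tested. In bulk samples, fewer cells of a type and less RNA per cell cannot be told apart.

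In the knockdown cells the secreted matrix proteins CCN1 and CCN2 and the nuclear ankyrin repeat protein ANKRD1 rose, by 2.03-fold, 1.88-fold and 1.998-fold. TEAD4 rose 1.56-fold while TEAD1 fell 1.22-fold, and the kinase LATS2 fell 1.37-fold. YAP1 on its brightest probe set and AMOTL2 did not pass the test, and WWTR1 passed with a small rise that was lost under other settings. Calls were made at an adjusted p under 0.05 with limma over 13599 genes. Of the 10 genes, 9 were bright enough to be tested, of which 5 rose, 2 fell and 2 did not pass. Read against all genes, the count of 7 of 9 is not a result about these genes, because 66.5% of all genes tested passed, 32.4% higher and 34.1% lower. Groups did not overlap for 6 of the 9, beside 70.3% of all genes tested, and 4 of the 9 were higher in knockdown with no overlap, beside 33.6% of all genes tested. Ranked by signed change, from the largest fall to the largest rise, CCN1, ANKRD1 and CCN2 lay at the 97.5th, 97.4th and 96.6th percentile of the changes of all genes tested, TEAD4 at the 92.6th and LATS2 at the 11.9th. The median change of the 9 was 0.13 on the log2 scale, beside -0.03 for all genes tested.

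**Figure D1:**
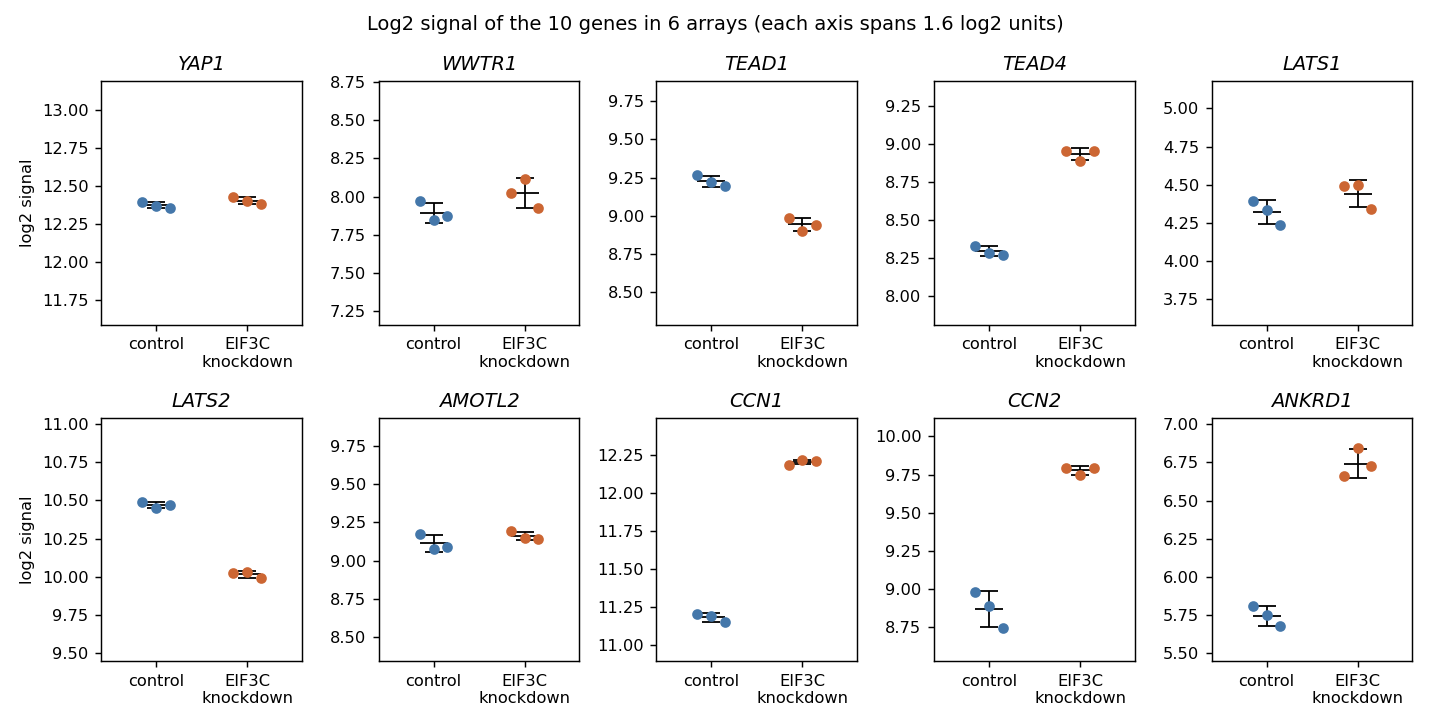
Log2 signal of the brightest probe set of each gene in 3 control and 3 EIF3C knockdown arrays. Points are arrays, horizontal marks are means and bars are SD. The groups do not overlap for TEAD1, TEAD4, LATS2, CCN1, CCN2 and ANKRD1, and they overlap for YAP1, WWTR1, LATS1 and AMOTL2.

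Among the target genes, CCN1 encodes a secreted protein of the extracellular matrix that binds integrins, and it is a standard readout of YAP. Its log2 signal was 11.21, 11.19 and 11.15 in control and 12.19, 12.21 and 12.21 in knockdown. Each knockdown array lay above each control array by a gap many times the spread within either group. The mean rose from 11.18 ± 0.03 to 12.20 ± 0.02 (SD, n = 3 each), a log2 change of 1.02 (SE 0.02, adjusted p = 4.9e-16 by limma). It is the only one of the 10 genes called at least 2-fold higher on its brightest probe set, as were 2.60% of all genes tested, and none of the 10 was called at least 2-fold lower, as were 2.22%. The second probe set of CCN1 gave 1.12.

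CCN2, or connective tissue growth factor, is a related matrix protein and the other usual readout of YAP. It gave 8.98, 8.88 and 8.74 in control and 9.79, 9.74 and 9.80 in knockdown. Control arrays were the more scattered, and the lowest knockdown array was still well above the highest control array. The mean changed from 8.87 ± 0.12 to 9.78 ± 0.03 (SD, n = 3 each), by 0.91 (SE 0.05, adjusted p = 2.14e-11). All 3 of its probe sets rose, with changes from 0.91 to 1.11.

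ANKRD1, or CARP, is a stretch-responsive ankyrin repeat protein of muscle sarcomeres and nuclei whose gene is induced by YAP in many cell types. Its signals were 5.81, 5.75 and 5.68 in control and 6.66, 6.84 and 6.73 in knockdown. No array of one group reached the other. All lay above the lowest mean kept for testing, 4.635, which is a filter and not a detection limit. The control signals lay below the array medians, 6.09 to 6.11, so ANKRD1 was dim in control. The change was 0.999 (SE 0.07, adjusted p = 1.76e-09), from 5.74 ± 0.07 to 6.74 ± 0.09 (SD, n = 3 each). ANKRD1 has 1 probe set, so no second one checks it.

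The promoters of CCN2 and ANKRD1 are shown because TEAD factors are known to act on both genes close to the start, and both rose. The sequences are from RefSeq on GRCh38.p14 and run from 250 bases before the annotated start to the last base before it, 5′ to 3′ on the gene's strand, with matches to the TEAD motif GGAATG or its reverse complement CATTCC in capitals. The CCN2 stretch lies at chr6:131951373-131951622 on the minus strand, and that of ANKRD1 at chr10:90921088-90921337 on the minus strand.
CCN2: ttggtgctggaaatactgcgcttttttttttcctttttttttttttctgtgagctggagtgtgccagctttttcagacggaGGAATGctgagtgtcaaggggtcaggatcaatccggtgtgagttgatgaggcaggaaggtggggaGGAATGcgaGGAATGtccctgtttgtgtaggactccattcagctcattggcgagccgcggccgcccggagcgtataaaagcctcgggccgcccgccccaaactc
ANKRD1: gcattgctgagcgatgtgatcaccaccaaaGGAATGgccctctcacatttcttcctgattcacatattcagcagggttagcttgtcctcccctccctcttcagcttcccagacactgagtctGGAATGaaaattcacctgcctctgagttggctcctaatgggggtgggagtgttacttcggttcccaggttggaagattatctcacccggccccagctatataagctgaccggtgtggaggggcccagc

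CCN2 holds 3 matches, which begin 169, 104 and 95 bases before the start, and ANKRD1 holds 2, which begin 220 and 128 bases before it. Of 35116 RefSeq windows of 300 bases (250 before to 50 after a start), 14% held at least 1 match on either strand, 1.37% at least 2 and 0.128% at least 3. Windows were found for 7 of the 10 genes, and CCN1, TEAD1 and TEAD4 had none in the table. The match was not confined to genes that rose. YAP1 and AMOTL2, which did not pass on their brightest probe sets, held 1 match each, and LATS2, which fell, held 1 just after its start. Each of these is shown in 30 bases, from YAP1 at chr11:102110273-102110302 on the plus strand, from the downstream one of the 2 annotated starts of AMOTL2 at chr3:134374499-134374528 on the minus strand, and from LATS2 at chr13:21061560-21061589 on the minus strand.
YAP1: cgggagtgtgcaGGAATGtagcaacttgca
AMOTL2: ctgaaactctcaCATTCCtggcatagcagc
LATS2: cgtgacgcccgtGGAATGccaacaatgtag

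In WWTR1 and LATS1, with 2 windows each, these letters were not found. AP-1 factors often act together with TEAD. A loose form of their motif, TGANTCA with N for any base, is its own reverse complement. It was found once in ANKRD1, as TGATTCA beginning 195 bases before the start and apart from the TEAD matches. In LATS1 it was found once, as TGAATCA. Of all windows, 7.71% held at least 1 match to this form. Over all genes tested that had a window, 33.9% of the 9308 without a TEAD match rose, and 32.4% of the 1671 with at least 1. Of the 155 with at least 2 matches in 1 window, as in CCN2 and ANKRD1, 33.5% rose. A match is a stretch of letters and not a measured binding site.

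**Figure D2:**
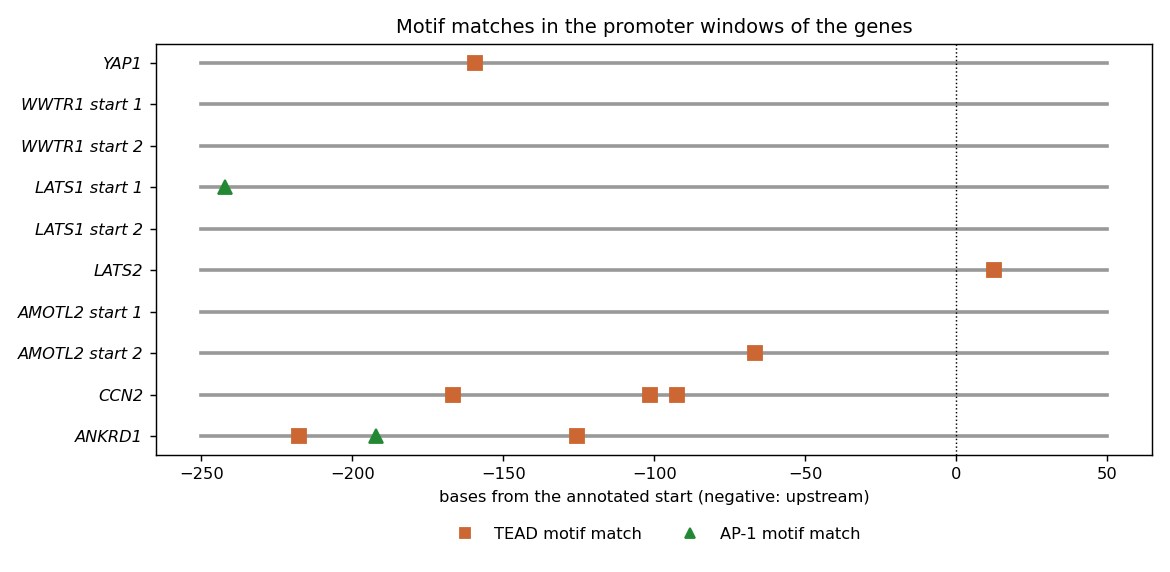
Positions of matches to the TEAD motif (squares) and to TGANTCA, a loose form of the AP-1 motif (triangles), in the RefSeq promoter windows of 7 genes. Positions are in bases from the annotated start, on either strand. CCN2 holds 3 TEAD matches and ANKRD1 holds 2, all upstream of the start, and LATS2 has its match just after it.

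Among the factors that bind these motifs, TEAD4 and TEAD1 went opposite ways. TEAD4 gave 8.33, 8.28 and 8.27 in control and 8.95, 8.88 and 8.96 in knockdown, and so was higher in each knockdown array than in any control. The change was 0.64 (SE 0.04, adjusted p = 2.32e-10), from 8.29 ± 0.03 to 8.93 ± 0.04 (SD, n = 3 each), on the single probe set of the gene. TEAD1, the family member first described as a factor of muscle and viral enhancers, gave 9.27, 9.22 and 9.19 in control and 8.98, 8.90 and 8.94 in knockdown, again with no overlap but in the other direction. Its log2 signal fell by 0.28 (SE 0.04, adjusted p = 2.58e-06), from 9.23 ± 0.04 to 8.94 ± 0.04 (SD, n = 3 each). The remaining probe sets of TEAD1 had control means of 6.02 and 3.29, and neither passed, with -0.11 and -0.03, and with the mean of all 3 the change was -0.14 (adjusted p = 0.0259). Within arrays, the change of TEAD4 exceeded that of TEAD1 by 0.92 (SE 0.01, exact two-sided permutation test p = 0.10, the smallest that 3 against 3 allows, adjusted p = 0.20 over 4 pairs of related genes).

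The coactivators themselves moved little on their brightest probe sets. YAP1 gave 12.40, 12.37 and 12.35 in control and 12.43, 12.40 and 12.38 in knockdown, so that the groups overlapped. The change was 0.03, with a 95% interval from -0.01 to 0.07 (adjusted p = 0.173). The other 7 probe sets of YAP1 did not move together. The test of each was run over all 49293 human probe sets, of which 48.2% passed, 24.1% higher and 24.1% lower. The 2 next brightest did not pass either, at 0.02 each. The fourth was lower by 0.08 (adjusted p = 0.0269), which is within the range of the control probe sets, and its call was lost with median centring (adjusted p = 0.0516) and with no intensity trend (0.227). It was lost too when control replicate 3 (0.124), knockdown replicate 3 (0.0915) or knockdown replicate 1 (0.0746) was left out. The fifth, sixth and seventh, with control means of 10.65, 10.47 and 9.53, rose by 0.34, 0.35 and 0.32 with no overlap between groups (adjusted p = 9.75e-08, 3.69e-08 and 1.22e-06). The eighth was scattered within both groups, at -0.14 (adjusted p = 0.359), and it was called lower at -0.27 (adjusted p = 0.0415) when control replicate 1 was left out. With the mean of all 8 probe sets, YAP1 was called higher at 0.11 (adjusted p = 0.000733).

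**Figure D3:**
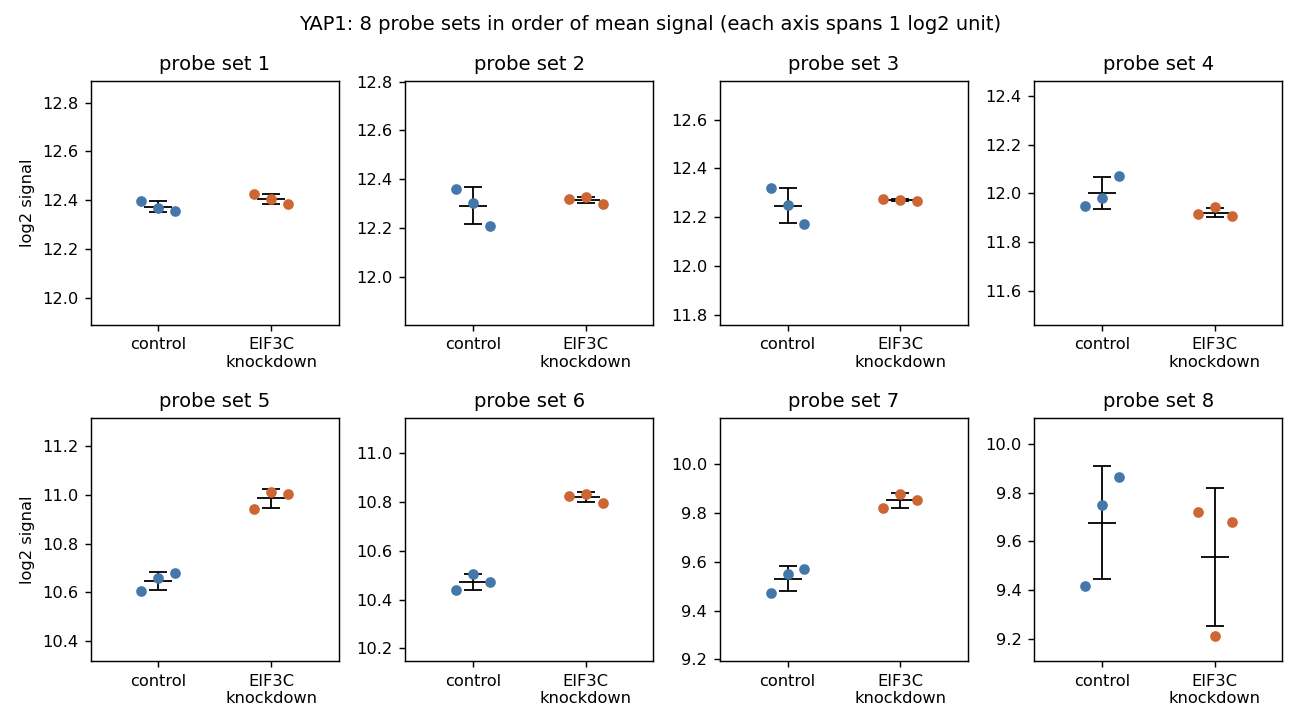
Log2 signal of the 8 probe sets of YAP1, numbered by mean signal, in 3 control and 3 EIF3C knockdown arrays; points are arrays, marks are means and bars are SD. Probe sets 5, 6 and 7 are higher in every knockdown array by 0.32 to 0.35 in the mean, whereas the groups overlap on probe sets 1, 2, 3 and 8.

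WWTR1, the gene of TAZ, gave 7.97, 7.84 and 7.87 in control and 8.03, 8.12 and 7.93 in knockdown. One knockdown array lay below the highest control array, so the groups overlapped. The mean was higher by 0.13 (SE 0.05, adjusted p = 0.0443), which is less than the largest rise of a control probe set. The call was lost when any 1 of 4 arrays was left out: control replicate 2 (adjusted p = 0.151), control replicate 3 (0.0803), knockdown replicate 1 (0.0929) and knockdown replicate 2 (0.234, with the change at 0.083). It was lost also with quantile normalization (0.0952), no filter (0.0555) and no intensity trend (0.0879). The other 2 probe sets of WWTR1, with control means of 7.46 and 6.43, were higher by 0.22 and 0.49 with no overlap (adjusted p = 0.00311 and 0.0011), and the mean over its probe sets gave 0.28. The change of WWTR1 exceeded that of YAP1 by 0.10 (SE 0.06), which the exact two-sided permutation test did not separate (p = 0.20, adjusted p = 0.20).

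Of the kinases that phosphorylate YAP and TAZ, LATS2 fell. It gave 10.49, 10.45 and 10.47 in control and 10.02, 10.03 and 9.99 in knockdown, with arrays of each group close together and the groups far apart. The log2 signal fell by 0.46 (SE 0.03, adjusted p = 1.29e-10), from 10.47 ± 0.02 to 10.02 ± 0.02 (SD, n = 3 each). Its second probe set fell by 0.25 (adjusted p = 9.95e-05), and the dimmest one, at a control mean of 5.40, did not pass at -0.15 (adjusted p = 0.166). With the mean of all 3 the change of LATS2 was -0.28. LATS1, its close relative, was dim, at 4.39, 4.33 and 4.23 in control and 4.49, 4.49 and 4.34 in knockdown, with overlap, and its mean lay under the filter. In the fit without a filter the change of LATS1 was 0.12 (95% interval -0.07 to 0.31, adjusted p = 0.28), and none of its 3 probe sets passed. The change of LATS2 was lower than that of LATS1 by a difference of -0.58 (SE 0.06, exact two-sided permutation test p = 0.10, the smallest possible, adjusted p = 0.20).

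AMOTL2, a member of the angiomotin family that binds YAP at junctions and in the cytoplasm, is the feedback gene of the group besides LATS2. Its signals were 9.18, 9.07 and 9.09 in control and 9.19, 9.15 and 9.14 in knockdown, and the groups overlapped. The change was 0.05, with a 95% interval from -0.03 to 0.13 (adjusted p = 0.241), and it turned to -0.017 with quantile normalization. The upper end of that interval lies below the lower ends for CCN1 (0.97), CCN2 (0.81) and ANKRD1 (0.85), although the difference between these changes was not itself tested. The other probe sets of AMOTL2, at control means of 6.21 and 5.78, did not pass, with 0.14 and -0.16 (adjusted p = 0.173 and 0.0953). The former was called higher at 0.22 (adjusted p = 0.0389) when knockdown replicate 3 was left out and stood at 0.070 when knockdown replicate 2 was. The latter was called lower with no intensity trend (adjusted p = 0.0289) and with array weights (adjusted p = 0.049995).

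**Figure D4:**
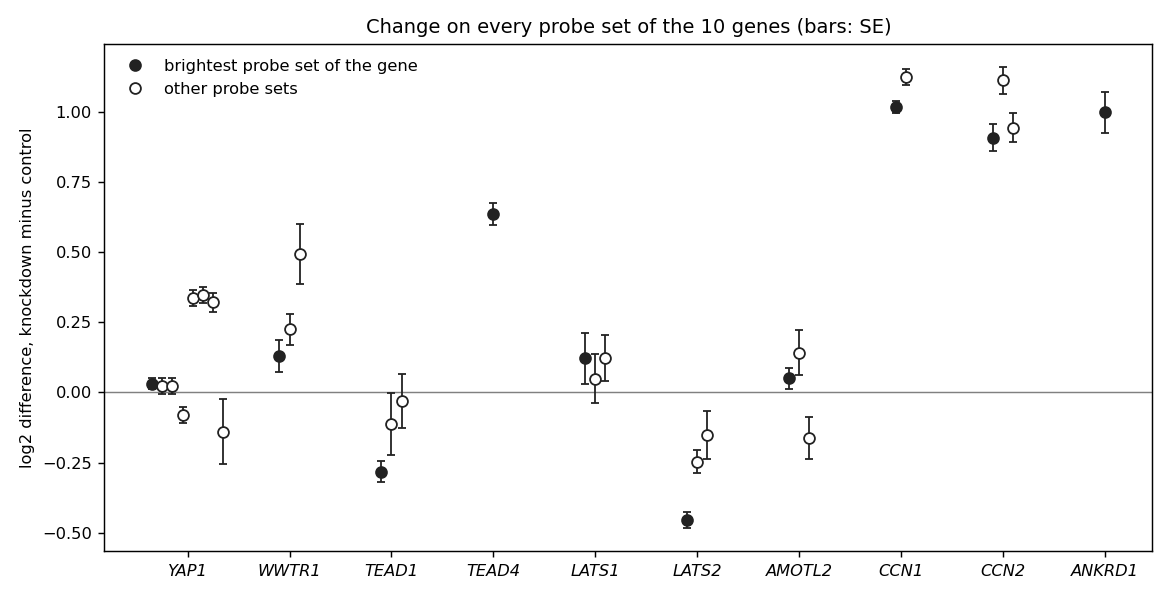
Log2 difference, knockdown minus control, on each of the 30 probe sets of the 10 genes, in order of brightness within a gene; filled points are the brightest probe set, open points the others, and bars are SE. The probe sets of CCN1, CCN2 and ANKRD1 lie between 0.91 and 1.12, those of LATS2 are all below 0, and those of YAP1 spread from -0.14 to 0.35.

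Over the 30 probe sets, 12 were called higher, 4 lower and 14 not. Of all human probe sets 48.2% were called, 24.1% higher and 24.1% lower. The 6 probe sets of the 3 targets all rose. The change of CCN2 differed from that of CCN1 by -0.11 (SE 0.06, exact two-sided permutation test p = 0.20, adjusted p = 0.20), so the test did not separate them.

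Beyond the 10 genes, a signature of 22 YAP/TAZ target genes, which includes 5 of them, was tested in full. Of the 22, 14 rose, 5 fell and 3 did not pass, with a median change of 0.36 beside -0.03 for all genes. Over all genes tested 32.4% rose and 34.1% fell. Among the 17 that are not described above, 11 rose and 4 fell, with a median of 0.34. The largest rises on the brightest probe sets were those of the receptor tyrosine kinase AXL (2.92), of F3, or tissue factor, which starts coagulation (2.16), and of the ectonucleotidase NT5E, or CD73 (1.83). On its other probe set AXL rose by 1.65. F3 gave a control mean of 9.95 ± 0.04 and a knockdown mean of 12.11 ± 0.06 (SD, n = 3 each), and its 3 probe sets rose by 2.16 to 2.39 (adjusted p = 6.16e-18 on the brightest). TGFB2, a TGF-beta ligand, rose by 0.83 on its brightest probe set while its other probe set was called lower, at -0.34. The growth arrest gene GADD45A rose by 0.78 and FJX1, a relative of the Drosophila four-jointed kinase, by 0.51. As background, several genes of the signature are also known targets of other pathways.

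Upstream, the list of the Hippo kinase cascade and its regulators had 20 genes, of which 18 were tested, 8 rose, 4 fell and 6 did not pass (median change 0.07), so 12 of 18 were called, a share near the 66.5% of all genes tested. TAOK3 and MAP4K4, kinases that can act on LATS in place of or above the MST kinases, rose by 1.06 and 1.04. FRMD6, a FERM domain protein that promotes Hippo signalling, rose by 0.85, and STK3, the gene of MST2, by 0.68. For STK3 4 of 5 probe sets were called higher, with changes from -0.12 to 0.69. WWC1, or KIBRA, rose by 0.34 on 1 of its 2 probe sets, with the other at -0.0082. STK4, the gene of MST1, was at -0.05 and did not pass on its brightest probe set, while among its 6 probe sets 4 were called higher and 1 lower. NF2, the gene of merlin, which recruits LATS to the membrane, likewise did not pass on its brightest probe set, while 5 of its 7 probe sets were called higher, with changes over the 7 from 0.03 to 0.80. PTPN14, a phosphatase that binds YAP and is also in the target signature, fell by 0.30. LATS2 had the largest fall of this list.

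The list of YAP/TAZ, TEAD and VGLL factors had 10 genes, of which 2 rose, 5 fell and 3 did not pass (median change -0.18). The 7 called of 10 are near the 66.5% of all genes tested, of which 34.1% fell. VGLL1, a cofactor that binds TEAD in place of YAP, had the largest change: its log2 signal fell by 1.08, from 9.30 ± 0.04 to 8.22 ± 0.04 (SD, n = 3 each, adjusted p = 2.71e-13). TEAD2 fell by 0.35, TEAD3 by 0.28 and VGLL3 by 0.23, so TEAD4 was the only one of the 4 TEAD genes that rose. The rise of WWTR1 is the other one in this list, and where its call was lost 1 gene of the list rose.

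In the list of polarity, FAT/DCHS, LIM and 14-3-3 proteins that act on YAP, 16 of 17 were tested, 6 rose, 8 fell and 2 did not pass (median change -0.06), beside 32.4% higher and 34.1% lower over all genes tested. YWHAE, a 14-3-3 protein of the family that holds phosphorylated YAP in the cytoplasm, rose by 0.71, while YWHAZ fell by 0.15 and YWHAQ by 0.15. Both falls are within the range of the control probe sets. For YWHAE 4 of 5 probe sets were called higher, with changes from -0.18 to 0.71. For YWHAZ 2 further probe sets and for YWHAQ 1 were called the opposite way. Among polarity proteins SCRIB rose by 0.70 and PARD3 by 0.58, and PARD6B fell by 0.69 and LLGL1 by 0.53. For PARD3 1 of 4 probe sets was called, and for PARD6B and LLGL1 1 of 2, the other standing at -0.06 in both. LIX1L rose by 0.50.

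**Figure D5:**
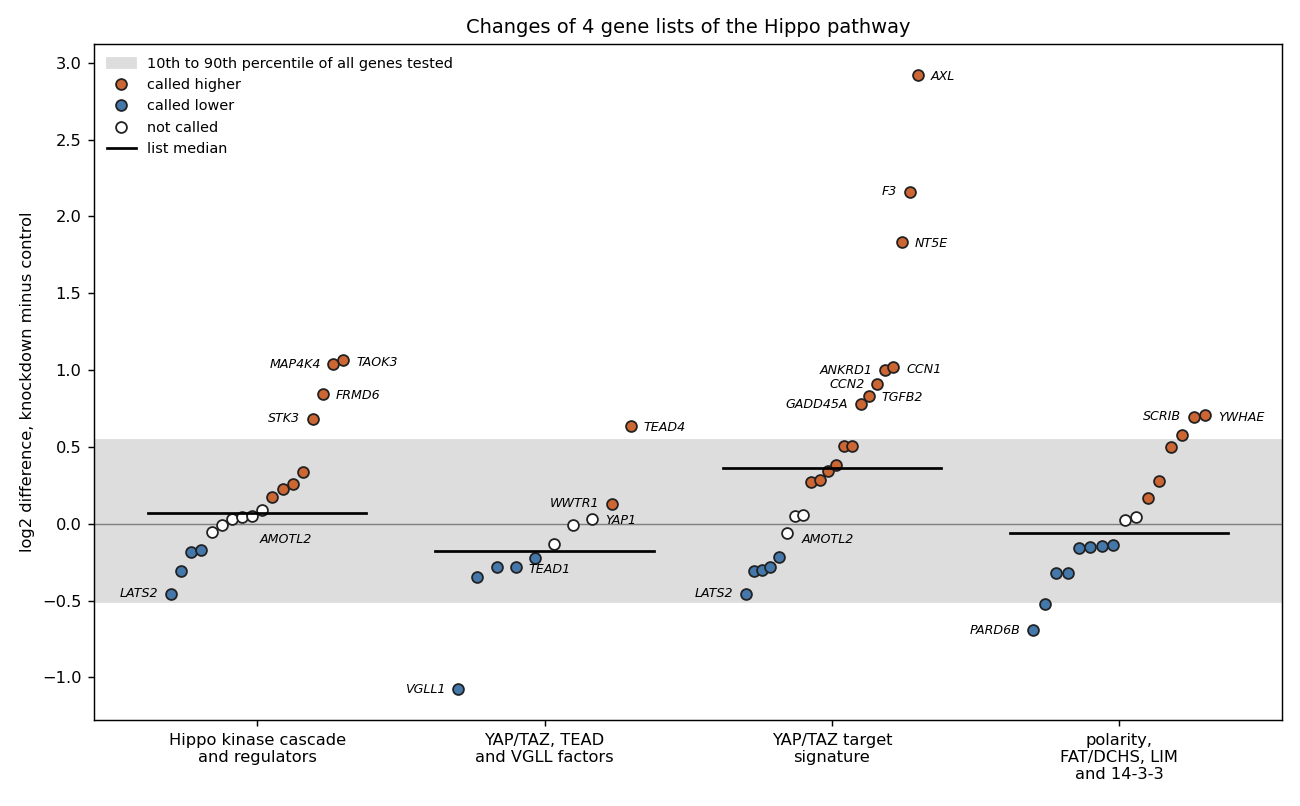
Log2 difference, knockdown minus control, of the tested genes of 4 lists of the Hippo pathway, each point 1 gene on its brightest probe set, coloured by its call, with list medians as lines and the range from the 10th to the 90th percentile of all genes tested (-0.51 to 0.54) in grey. AXL, F3 and NT5E stand highest in the target signature, above CCN1, CCN2 and ANKRD1, and VGLL1 is the lowest gene shown.

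Genes whose profile over the 6 arrays was most like that of a target were sought by the root mean square difference of mean-centred log2 signals. For CCN1 the nearest were the hyaluronan receptor gene CD44 and the transporter gene ABCC3, at 0.02 each. For CCN2 they were STAP2, at 0.02, and NMT2, at 0.03. For ANKRD1 they were ANKRD50, at 0.02, and PLCB4, at 0.03. The changes of these 6 genes lay between 0.90 and 1.04. That they lie near those of the targets follows from the search, which picks genes with a like change. Of the whole array 353 genes were called at least 2-fold higher.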

How the data were processed

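The authors deposited 1 log2 signal per probe set for each of 6 arrays, made with MAS5 per the submitters' processing notes; the log2 scale is read from the range of values, with the version, background correction and summarisation not given in the sources used here. Arrays were not normalized further, so a change shared by all genes cannot be measured, and no detection calls were used here. Gene symbols came from the annotation of the platform (44988 with 1 symbol, 1832 with several, 2473 with none); 44961 matched RefSeq of GRCh38.p14 by Entrez ID and 0 symbols changed. Each gene took its brightest probe set, and the lowest 25% of 18132 genes by mean were left out, which left 13599. Knockdown was compared with control in limma 3.58.1 (R 4.3.3), with lmFit, then eBayes allowing the variance to follow intensity, a model of group alone, and a threshold of 0.05 on the Benjamini-Hochberg adjusted p. Single probe sets and EIF3C were tested the same way, unfiltered, among 49293 human probe sets. Differences between paralogues were tested by exact permutation over arrays. The number of arrays limits the precision.

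The 10 genes, the 4 pathway lists and the 6 marker lists were chosen with earlier results of these data known. Named beside the 10 genes are up to 6 genes per list with the largest change among those called, the 2 genes most alike to each target, and, chosen after their values were seen, STK4, NF2, YWHAZ and YWHAQ and the marker genes. Alternatives were filters, normalization, the mean of probe sets, variance models, weights of arrays, a block for the replicate number, and leaving out each array.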

Additional observations from a re-analysis of the deposited data

How the results depend on the processing

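CCN1, CCN2, ANKRD1, TEAD4, TEAD1 and LATS2 kept their direction and their call under each alternative in which they were tested; ANKRD1 was not tested with a 50% filter. Their log2 changes ranged from 1.002 to 1.07, 0.85 to 0.99, 0.95 to 1.04, 0.59 to 0.66, -0.35 to -0.14 and -0.51 to -0.28. YAP1 became called with the mean of its probe sets, at 0.11. WWTR1 lost its call with no filter and with no intensity trend, at 0.13, and with quantile normalization, at 0.10; with 1 array left out it lay between 0.083 and 0.18. AMOTL2 turned to -0.017 with quantile normalization and was not called. Where each array was left out in turn, 4 to 5 of the 10 genes were called higher and 2 lower, and 1 to 2 genes of the YAP/TAZ, TEAD and VGLL list were called higher. That count was also 1 with no filter, quantile normalization and no intensity trend. With a 50% filter, which tests fewer genes, 2 genes of the Hippo cascade list and 3 of the target signature were called lower, and with the mean of probe sets 5 genes of the polarity list were. The cause of the other changes was not tested.

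Among single probe sets, signs turned on ones near 0. With 1 array left out, the second of YAP1 ranged from -0.017 to 0.059, the third from -0.015 to 0.058, the eighth from -0.27 to 0.023, the second of TEAD1 from -0.20 to 0.033, the dimmest of TEAD1 from -0.10 to 0.084 and the second of LATS1 from -0.012 to 0.095. With quantile normalization the dimmest of TEAD1 stood at 0.0098. Signal over background could not be assessed for LATS1 and the dim probe sets.

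Replicate numbers were not taken to pair the samples in the main model. Deviations of same-numbered arrays correlated at 0.076, 0.129 and 0.227 over genes, and those of differently numbered arrays at -0.179 to 0.105. Control replicate 1 correlated best with knockdown replicate 2 (0.105), and each of the other arrays with the array of its own number. With the replicate block, 4491 genes were called higher and 4816 lower, against 4401 and 4636 without it, and among the 10 genes the same counts were called, 5 higher and 2 lower; WWTR1 had an adjusted p of 0.0294.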
